A study of Homo sapiens with 12 samples.

Results

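The GFP control line was compared with WT cells of ARPE-19, an established human cell line from the retinal pigment epithelium (RPE). The comparison used 6 of the 12 libraries of the study, 3 labelled GFP and 3 labelled WT, and every line of the count table that carries a gene name. The other 6 libraries, 3 of a GSTA4 line and 3 of an OSK line, entered the same model and are given only beside a result. The lines are stable derivatives of ARPE-19 that were harvested on day 4 of expressing a cloned coding sequence (ORF, open reading frame). In the control line this is the fluorescent protein GFP, and the labels name no ORF and no day for the WT cells. They do not name a promoter or an inducing agent, do not say how the lines were selected, and leave unsaid whether a group's 3 libraries are separate cultures. The p-values therefore rest on the spread between libraries within the groups, which may be technical. That spread was estimated over all 12 libraries, those of the GSTA4 and OSK lines included. The ORF cannot be told apart from any other difference between the GFP line and the WT cells. Reads of the GFP sequence itself were not analysed here, so the labels were not checked against it.

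The RPE is a pigmented epithelium behind the photoreceptors that recycles retinoids for vision, holds melanin and takes up shed outer segments. In the eye its cells rarely divide, whereas ARPE-19 cells divide in culture. Genes for mitosis are switched on late in the cell cycle through promoter elements known as the CHR and the CCAAT box, which recruit the DREAM and MuvB complexes, FOXM1, MYBL2 and NF-Y. Low oxygen stabilises HIF1A and EPAS1 (HIF2A), which bind a short core element in genes for glucose uptake, glycolysis and vessel growth. MITF, with OTX2 and PAX6, directs the pigment genes through an element known as the M-box.

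The 6 libraries held 12630675 to 17045454 reads. In CPM (reads scaled by TMM to a common library size), the 3-read floor that a count of 0 allows was 0.177 to 0.228, for counting error only. The RPE markers OTX2, MITF, PMEL, TYRP1, KRT8 and KRT18 were readable in both groups. RLBP1 and BEST1, also RPE markers, were low, with means of 1.45 and 2.96 CPM in WT and 5.23 and 8.64 in GFP. RPE65, the retinoid isomerase that defines mature RPE, had 1, 6 and 2 reads in the WT libraries and 2, 3 and 1 in the GFP libraries. One library in each group stood apart. GFP replicate 1 had reads on 27349 named genes where the other 5 libraries, thinned to the same depth, had 19831 to 21787. It alone held reads on 3599 genes, with a median of 2 reads each and 0.0745% of its reads. WT replicate 1 correlated with the other WT libraries at r = 0.991, against 0.995 between those 2 (log2 CPM across genes). It was the lowest WT library in 67.9% of the genes that were higher in GFP and the highest in 69.6% of those that were lower, against 38.7% and 37.1% among genes that did not pass the test. WT replicate 1 thus lay on the far side from GFP more often in the called genes, and the counts of each list below are also given without it and without GFP replicate 1.

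Of 15179 genes tested with edgeR's quasi-likelihood test, 11% were higher and 11.2% lower in GFP than in WT at a Benjamini-Hochberg adjusted p under 0.05. Among all genes tested the median log2 fold change was 0.01, and 2.55% were higher and 0.758% lower by at least 1 on the log2 scale with a passing p. These shares are the background for the counts of list members below.

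Promoter windows of 6 genes whose members moved in the comparison show the elements that the 3 programmes are known for. Each window runs from 250 bases before to 50 bases after the gene's start (RefSeq, GRCh38.p14), 5′ to 3′ on the gene's strand. For each programme the 2 windows belong to the genes with the lowest adjusted p among those members of a fixed, well-known set that were searched and held a match. Not every member of the set was searched. The hypoxia gene NDRG1, left out of the search, had a lower edgeR adjusted p (6.06e-06) than ENO2 (1.44e-05). In TOP2A (chr17:40417847-40418146, minus strand) and BUB1 (chr2:110678014-110678313, minus strand) capitals mark TTTGAA, the core of the CHR, and CCAAT, both read on either strand.
TOP2A: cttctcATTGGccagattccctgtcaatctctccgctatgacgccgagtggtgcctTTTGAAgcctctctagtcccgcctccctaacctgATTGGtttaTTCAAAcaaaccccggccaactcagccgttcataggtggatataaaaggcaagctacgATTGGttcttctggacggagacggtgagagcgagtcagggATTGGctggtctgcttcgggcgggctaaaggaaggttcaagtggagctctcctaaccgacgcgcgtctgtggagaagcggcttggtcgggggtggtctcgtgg
BUB1: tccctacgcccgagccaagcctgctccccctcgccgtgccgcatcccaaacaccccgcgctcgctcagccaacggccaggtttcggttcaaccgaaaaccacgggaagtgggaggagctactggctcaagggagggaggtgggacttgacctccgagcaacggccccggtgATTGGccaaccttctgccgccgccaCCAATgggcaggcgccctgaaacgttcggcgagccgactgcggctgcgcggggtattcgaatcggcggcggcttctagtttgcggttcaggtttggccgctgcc
In CA9 (chr9:35673678-35673977, plus strand) and ENO2 (chr12:6914330-6914629, plus strand) capitals mark ACGTG, the core of the hypoxia response element, on either strand.
CA9: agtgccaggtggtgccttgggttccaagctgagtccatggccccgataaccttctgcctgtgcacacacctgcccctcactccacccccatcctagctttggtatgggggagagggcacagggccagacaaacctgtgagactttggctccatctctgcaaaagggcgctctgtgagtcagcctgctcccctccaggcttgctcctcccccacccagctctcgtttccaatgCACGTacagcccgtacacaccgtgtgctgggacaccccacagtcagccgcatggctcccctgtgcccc
ENO2: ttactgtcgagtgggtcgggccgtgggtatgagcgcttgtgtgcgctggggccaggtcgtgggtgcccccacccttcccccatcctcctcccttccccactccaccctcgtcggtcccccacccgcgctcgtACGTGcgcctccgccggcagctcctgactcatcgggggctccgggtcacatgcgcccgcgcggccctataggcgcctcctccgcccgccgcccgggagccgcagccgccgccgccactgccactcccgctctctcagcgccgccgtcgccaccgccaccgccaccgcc
In TYR (chr11:89177625-89177924, plus strand) and TYRP1 (chr9:12693135-12693434, plus strand) capitals mark CATGTG, the core of the M-box, on either strand.
TYR: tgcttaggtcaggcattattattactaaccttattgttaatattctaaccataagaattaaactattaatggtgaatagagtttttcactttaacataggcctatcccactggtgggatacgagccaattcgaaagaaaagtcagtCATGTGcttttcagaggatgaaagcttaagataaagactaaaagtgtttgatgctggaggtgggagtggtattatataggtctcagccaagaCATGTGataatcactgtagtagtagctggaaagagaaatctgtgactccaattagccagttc
TYRP1: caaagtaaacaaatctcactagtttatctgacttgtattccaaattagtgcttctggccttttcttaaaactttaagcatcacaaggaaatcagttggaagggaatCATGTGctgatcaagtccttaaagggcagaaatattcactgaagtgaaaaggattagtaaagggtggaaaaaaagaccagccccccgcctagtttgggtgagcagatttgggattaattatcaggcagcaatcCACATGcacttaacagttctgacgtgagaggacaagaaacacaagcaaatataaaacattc
TOP2A held 2 TTTGAA and 4 CCAAT matches, the TTTGAA matches starting 194 and 151 bases before the gene start. BUB1 held 2 CCAAT matches and no TTTGAA. The ACGTG of CA9 lay 18 bases before the start and that of ENO2 118 bases before it. TYR carried CATGTG at 104 and 12 bases before its start, and TYRP1 at 144 and 11. Over the lists, TTTGAA was in 37 of 55 mitosis promoters with a window (67.3%) and in 15.4% of all 27305 promoter windows, and CCAAT in 38 of 55 (69.1%) and 35.7%. ACGTG was in 24 of 50 hypoxia promoters (48%) and 21.6% of all. CATGTG was in 13 of 44 RPE promoters (29.5%) and 11.2% of all. These matches describe letters in the window and carry no information on binding in these cells.

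Genes for mitosis were higher in the GFP line nearly throughout. Of 63 tested members of the mitosis list, 58 rose (92.1%, against 11% of all genes), none fell, and 52 rose by at least 1 on the log2 scale. Their median log2 fold change was 1.77, and the summed level of the list was 407 ± 13.4 CPM in WT and 917 ± 41.8 CPM in GFP (SD, n = 3), a fold of 2.25. The list's members did not overlap between the groups, higher in GFP, for 59 of 63, where 16.9% of all genes did so. NUSAP1 had too few reads to be tested, and 72.8% of its exon bases overlap another gene. In bulk RNA, more dividing cells and more of these transcripts per cell cannot be told apart.

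**Figure D1:**
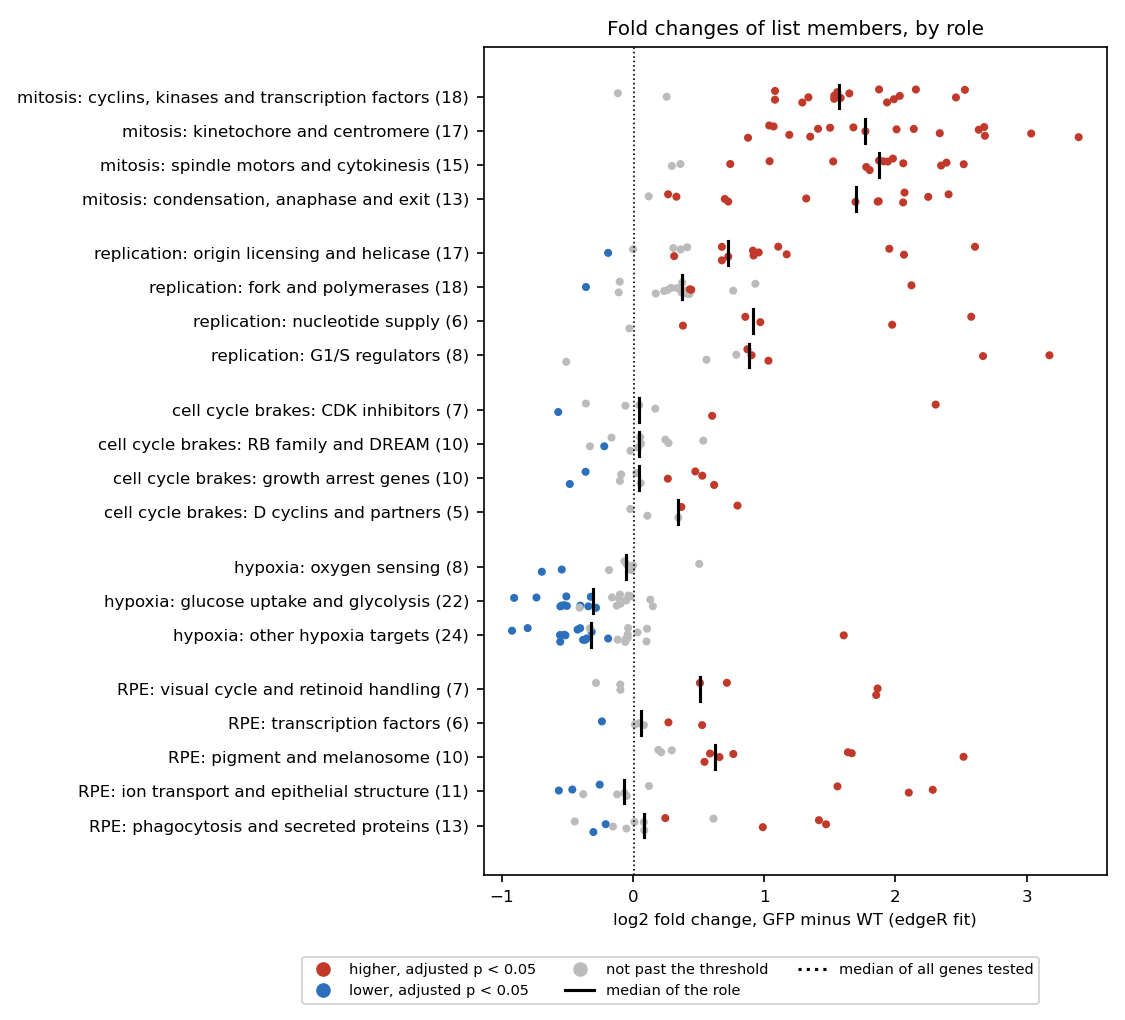
Log2 fold change of GFP over WT (x axis, edgeR) for every tested member of 5 gene lists, grouped by role, with the number tested in brackets. Points are red where higher and blue where lower at an adjusted p under 0.05, short bars are role medians and the dotted line is the median of all genes (0.01); the mitosis roles lie to the right, with medians of 1.57 to 1.88, and the hypoxia roles to the left of it.

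Among cyclins, kinases and transcription factors of mitosis, 16 of 18 rose. CDK1, the kinase that drives entry into mitosis, was at 2.80, 2.86 and 2.77 CPM in the WT libraries and at 11.2, 11.02 and 10.1 CPM in the GFP libraries. The groups did not overlap and replicates lay close together, and the log2 fold change was 1.94 (SE 0.194, adjusted p = 7.46e-07). Its partner cyclin CCNB1 was at 10.7, 9.83 and 9.60 CPM in WT and 21.0, 20.7 and 22.1 in GFP (log2 fold change 1.08, SE 0.101, adjusted p = 3.06e-07). PLK1, the polo kinase of centrosome maturation and mitotic exit, moved from 3.59 to 4.99 CPM over WT to 9.59 to 11.5 CPM over GFP (log2 1.29, adjusted p = 8.21e-06). Transcription factors of the late cell cycle rose as well. FOXM1 read 5.28, 5.13 and 5.42 CPM in WT and 14.7, 16.8 and 16.0 in GFP (log2 1.58, SE 0.136, adjusted p = 1.05e-07). MYBL2 read 1.24, 2.93 and 1.83 CPM in WT and 7.29, 8.30 and 6.11 in GFP (log2 1.87, SE 0.251, adjusted p = 2.5e-05). The 2 members of this role that did not pass were CCNF, at 0.26, and the phosphatase CDC25B, at -0.12, on the log2 scale.

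All 17 kinetochore and centromere genes rose, with log2 fold changes from 0.88 for MAD2L1, a spindle checkpoint protein, to 3.40 for SKA3. BUB1, a checkpoint kinase, read 1.99, 2.71 and 2.59 CPM in WT and 15.2, 14.1 and 12.8 in GFP (log2 2.53, SE 0.16, adjusted p = 2.13e-09). NDC80, the outer kinetochore protein that holds microtubules, read 0.559, 1.10 and 1.00 CPM in WT and 6.08, 5.51 and 5.43 in GFP (log2 2.68, SE 0.248, adjusted p = 2.65e-07). Every GFP library of BUB1 and NDC80 was above every WT library by several fold. SPC25, its partner in the NDC80 complex, read 0.497, 0.293 and 0.0589 CPM in WT and 2.66, 2.43 and 1.97 in GFP. Its log2 fold change was 3.03 (SE 0.452, adjusted p = 7.92e-05), with WT values near the floor. HJURP, the chaperone that loads the centromeric histone CENPA, read 1.30, 1.47 and 1.89 CPM in WT and 9.87, 10.8 and 9.50 in GFP (log2 2.68, adjusted p = 1.09e-08). CENPF, a large protein of the outer kinetochore, read 14.4, 15.8 and 14.3 CPM in WT and 51.9, 40.2 and 59.2 in GFP (log2 1.77, adjusted p = 1.01e-08).

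Of 15 spindle and cytokinesis genes 13 rose, and ECT2 (0.30) and PRC1 (0.36) did not pass. At least 40% of the exon bases of PRC1 overlap another gene. KIF11, the motor that separates the spindle poles, read 2.67, 4.69 and 4.83 CPM in WT and 14.6, 16.4 and 17.03 in GFP (log2 1.98, SE 0.17, adjusted p = 1.07e-07). WT replicate 1 was the lowest of the 6 for KIF11, and without it the log2 fold change was 1.74. Of 13 genes for chromosome condensation, anaphase and mitotic exit 12 rose, and INCENP (0.12) did not pass. TOP2A, the topoisomerase that untangles sister chromatids, read 6.96, 10.6 and 12.4 CPM in WT and 52.9, 53.3 and 52.3 in GFP (log2 2.40, SE 0.131, adjusted p = 2.55e-10). The condensin subunits differed among themselves: NCAPG and NCAPH rose by 2.07 and 1.32 on the log2 scale, whereas SMC2 and NCAPD2 rose by 0.27 and 0.33. The call of SMC2 was lost without GFP replicate 1 (adjusted p = 0.073).

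**Figure D2:**
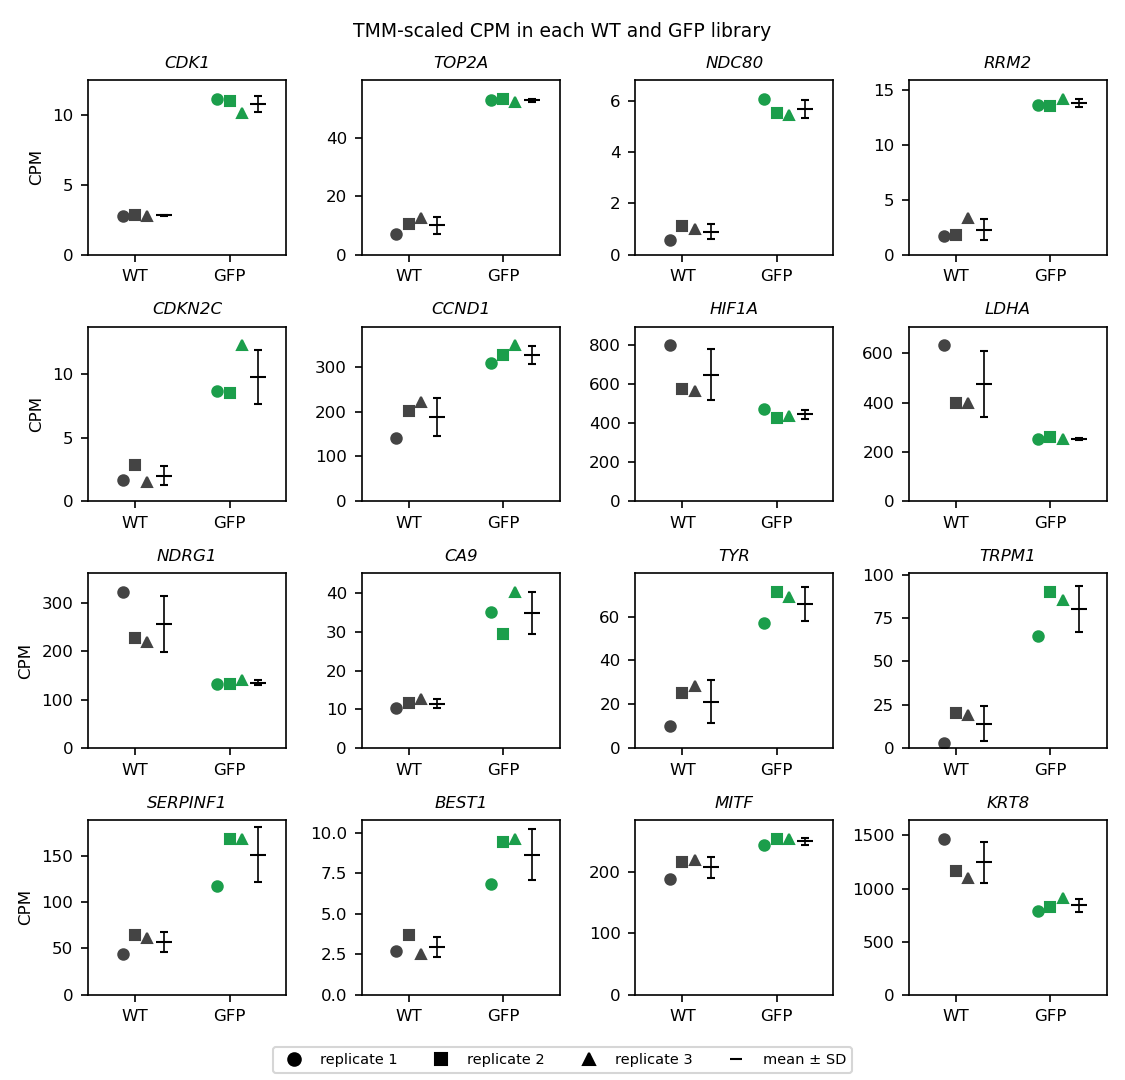
TMM-scaled CPM (y axis, from 0, linear) of 16 named genes in the 3 WT (grey) and 3 GFP (green) libraries, with marker shape for the replicate number and the bar for mean ± SD (n = 3). In all 16 panels the 3 GFP libraries lie on one side of the 3 WT libraries, and WT replicate 1 is the WT library farthest from GFP in 13 of them, TYR and LDHA among these.

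Without GFP replicate 1, 56 of the same 63 mitosis genes rose and the median was 1.69. Without WT replicate 1 the values were 59 and 1.66, and without both 57 and 1.70. The summed level rose 2.24-fold without GFP replicate 1 and 2.21-fold without WT replicate 1. The GSTA4 and OSK lines, set against the same 3 WT libraries, had median log2 fold changes of 1.44 and 2.89 over these 63 genes. Their summed levels were 746 ± 10.6 and 1894 ± 168 CPM (SD, n = 3), so that all 3 lines carrying an ORF read above WT, with GFP between the other 2. These comparisons share their control libraries.

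Genes for DNA replication rose less uniformly. Of 49 tested members 25 rose and 2 fell, against 11% and 11.2% of all genes, with a median log2 fold change of 0.56. Their summed level was 769 ± 13.6 CPM in WT and 924 ± 29.7 in GFP (SD, n = 3), a fold of 1.20. The count that rose was 25 without GFP replicate 1, 24 without WT replicate 1 and 28 without both.

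Among origin licensing and helicase genes 12 of 17 rose. CDC6 and CDT1 load the MCM helicase onto origins. CDC6 read 5.90, 4.47 and 5.07 CPM in WT and 11.1, 8.95 and 10.1 in GFP (log2 0.96, SE 0.171, adjusted p = 0.000475). CDT1 read 2.30, 1.39 and 2.36 CPM in WT and 4.56, 5.08 and 3.60 in GFP (log2 1.11, adjusted p = 0.00154). For both genes the GFP libraries lay above all WT libraries. MCM2, a helicase subunit, read 11.9, 17.8 and 19.98 CPM in WT and 22.3, 27.1 and 30.0 in GFP (log2 0.68, SE 0.144, adjusted p = 0.00214). CDC45, which completes the active helicase, read 0.497, 0.587 and 1.18 CPM in WT and 5.32, 4.22 and 4.61 in GFP (log2 2.61, SE 0.308, adjusted p = 6.38e-06). The 6 subunits of the helicase ring did not move as one: MCM2, MCM4, MCM5 and MCM6 rose by 0.31 to 0.92 and MCM3 was at 0.00. MCM7 fell by 0.19 (adjusted p = 0.0229), a call that was lost without GFP replicate 1 (edgeR adjusted p = 0.0633) and without WT replicate 1 (adjusted p = 0.0811).

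Of 18 genes of the replication fork 3 rose (16.7%, near the 11% of all genes), UHRF1 (2.12), LIG1 (0.44) and CHAF1B (0.43). Without WT replicate 1 the calls of LIG1 (adjusted p = 0.0733) and CHAF1B (adjusted p = 0.0948) were lost. PCNA, the sliding clamp of the polymerases, read 79.7, 72.6 and 74.5 CPM in WT and 70.0, 71.9 and 69.6 in GFP. The log2 difference of -0.10 (SE 0.0636) did not pass (adjusted p = 0.273). POLD1, the catalytic subunit of polymerase delta, was lower, with 31.9, 24.8 and 24.9 CPM in WT and 21.7, 20.4 and 21.6 in GFP (log2 -0.36, adjusted p = 0.0172). That call was lost without WT replicate 1 (log2 -0.23, adjusted p = 0.139) and without GFP replicate 2 (adjusted p = 0.0709). In nucleotide supply 5 of 6 rose, and DUT did not pass. RRM2, the cell cycle subunit of ribonucleotide reductase, read 1.68, 1.76 and 3.36 CPM in WT and 13.6, 13.5 and 14.2 in GFP (log2 2.58, SE 0.199, adjusted p = 2.54e-08). TYMS, thymidylate synthase, read 4.47, 4.91 and 4.54 CPM in WT and 9.64, 8.81 and 8.82 in GFP (log2 0.97, adjusted p = 0.00109). At least 40% of the exon bases of TYMS overlap another annotated gene, and the strand setting of the counts is not given in the sources used here.

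Regulators of the step from G1 to S phase rose in 5 of 8 cases. E2F1, an activator of replication genes, read 5.28, 4.40 and 4.42 CPM in WT and 9.26, 9.02 and 10.6 in GFP (log2 1.03, SE 0.134, adjusted p = 1.82e-05). E2F2, another activator, read 0.497, 0.660 and 0.236 CPM in WT and 3.49, 2.29 and 2.99 in GFP (log2 2.67, adjusted p = 2.48e-05). The E-type cyclins, which start S phase with CDK2, did not pass. CCNE2 read 1.99, 1.91 and 1.89 CPM in WT and 4.40, 2.36 and 1.83 in GFP, with only GFP replicate 1 well above WT. Its log2 fold change of 0.56 (SE 0.296) did not pass (adjusted p = 0.188), and CCNE1 was at -0.51 without passing. At least 40% of the exon bases of CCNE2 overlap another gene.

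A list of genes around the G1 arrest point, brakes of the cell cycle together with the D cyclins and their kinases, had a median log2 fold change of 0.06. Of its 32 tested members 8 rose (25%, against 11% of all genes) and 4 fell (12.5%, against 11.2%). The counts were 7 and 3 without GFP replicate 1 and 4 and 3 without WT replicate 1. Over all genes, 1538 rose and 1409 fell of 15476 tested without GFP replicate 1. Without WT replicate 1 it was 1197 and 1329 of 15612. By role, 2 of 7 inhibitors of cyclin-dependent kinases rose and 1 fell, 1 of 10 genes of the RB family and DREAM fell, 4 of 10 growth arrest genes rose and 2 fell, and 2 of 5 D cyclins and partners rose. The inhibitors of cyclin-dependent kinases diverged. CDKN1A (p21) read 176, 205 and 204 CPM in WT and 164, 206 and 192 in GFP, overlapping ranges with a log2 difference of -0.06 (SE 0.0782, adjusted p = 0.645). CDKN1B (p27) read 189, 185 and 184 CPM in WT and 190, 193 and 194 in GFP, a log2 difference of 0.05 (SE 0.0551, adjusted p = 0.585). CDKN1C was at -0.36 (SE 0.203) and did not pass. CDKN2B (p15), an inhibitor of CDK4 and CDK6, was lower, at 255, 331 and 323 CPM in WT and 199, 202 and 211 in GFP (log2 -0.57, SE 0.0892, adjusted p = 0.000128). CDKN2C (p18), an inhibitor of the same kinases, was higher, at 1.68, 2.86 and 1.53 CPM in WT and 8.66, 8.52 and 12.3 in GFP (log2 2.31, SE 0.225, adjusted p = 5.56e-07). For both of these inhibitors every GFP library lay outside the WT range.

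Cyclin D1 (CCND1), the partner of CDK4 and CDK6, rose from 142, 201 and 223 CPM in WT to 308, 326 and 348 in GFP (log2 0.80, SE 0.103, adjusted p = 1.7e-05). CCND2 read 1.49, 2.93 and 2.83 CPM in WT and 3.87, 2.00 and 3.32 in GFP and did not pass (log2 0.35, SE 0.317, adjusted p = 0.477). RBL2 (p130), a pocket protein of resting cells, read 76.4, 76.6 and 75.7 CPM in WT and 81.1, 75.2 and 78.8 in GFP, with a log2 difference of 0.04 (SE 0.0586, adjusted p = 0.677). Of the growth arrest genes, KLF9 fell from 171, 178 and 175 CPM to 127, 125 and 123 (log2 -0.48, SE 0.0583, adjusted p = 8.27e-06) and BTG1 by 0.36 (adjusted p = 0.00729, and 0.053 without GFP replicate 2). The antiproliferative gene BTG2 rose from 23.4, 42.2 and 38.2 CPM in WT to 44.0, 57.4 and 57.3 in GFP (log2 0.62, adjusted p = 0.00642), and by 0.40 without WT replicate 1.

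Hypoxia genes were lower in the GFP line, by small amounts. Of 54 tested members 26 fell (48.1%, against 11.2% of all genes) and 1 rose, with a median log2 fold change of -0.24, and none fell by as much as 1. The summed level was 15573, 13326 and 13118 CPM in the WT libraries and 10307, 11118 and 11335 in the GFP libraries. The ranges did not overlap, and WT replicate 1 was the highest. Of the same genes 24 fell without GFP replicate 1, 24 without WT replicate 1 and 21 without both. HIF3A and EFNA3 had too few reads to be tested, and 47.9% of the exon bases of EFNA3 overlap another gene.

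Of 8 oxygen-sensing genes 2 fell, the HIF subunits themselves. HIF1A read 797, 575 and 566 CPM in WT and 471, 424 and 436 in GFP (log2 -0.54, SE 0.0921, adjusted p = 0.000289). EPAS1 read 647, 431 and 453 CPM in WT and 307, 319 and 321 in GFP (log2 -0.69, SE 0.107, adjusted p = 0.000108). All GFP libraries were below all WT libraries for both subunits, with WT replicate 1 far above the other WT libraries. Without that library the log2 fold changes were -0.37 for HIF1A and -0.49 for EPAS1, both past the threshold. The prolyl hydroxylases that mark HIF for degradation did not pass. EGLN3, one of those that HIF itself induces, read 0.683, 0.440 and 0.295 CPM in WT and 1.22, 0.143 and 0.679 in GFP, which is close to the floor (log2 0.50, SE 0.601, adjusted p = 0.598).

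In glucose uptake and glycolysis 11 of 22 fell and none rose. SLC2A1 (GLUT1), the glucose carrier of the blood-retina barrier, read 2071, 1765 and 1713 CPM in WT and 1436, 1474 and 1475 in GFP (log2 -0.34, SE 0.0852, adjusted p = 0.00708). LDHA, which makes lactate from pyruvate, read 631, 396 and 398 CPM in WT and 250, 258 and 252 in GFP (log2 -0.91, SE 0.123, adjusted p = 2.98e-05). ENO2, an enolase, read 225, 213 and 216 CPM in WT and 144, 155 and 149 in GFP (log2 -0.54, SE 0.0692, adjusted p = 1.44e-05). All 3 genes were lower in every GFP library than in any WT library, and for ENO2 the WT libraries lay close together. LDHA fell by 0.65 without WT replicate 1. The pathway did not move as a whole. PGK1, which makes ATP in glycolysis, read 421, 393 and 364 CPM in WT and 407, 446 and 453 in GFP. Its log2 difference of 0.15 (SE 0.0638) did not pass with all libraries (adjusted p = 0.0963). It passed without GFP replicate 1 (0.20, adjusted p = 0.038), without WT replicate 1 (0.20, adjusted p = 0.0272) and without both (0.26, adjusted p = 0.00128). PDK1, which keeps pyruvate out of mitochondria, was at 0.13 (SE 0.13, adjusted p = 0.512). Several glycolytic genes have processed pseudogenes, so part of their reads could have been assigned elsewhere.

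Among the other hypoxia targets 13 of 24 fell. NDRG1, a stress-responsive gene widely used as a marker of hypoxia, read 323, 227 and 218 CPM in WT and 133, 131 and 141 in GFP (log2 -0.92, SE 0.109, adjusted p = 6.06e-06). BNIP3, a mitophagy receptor, read 61.3, 59.3 and 59.5 CPM in WT and 41.2, 41.1 and 40.4 in GFP (log2 -0.55, SE 0.0876, adjusted p = 0.000141). Replicates of BNIP3 differed by little within each group, WT replicate 1 included. VEGFA, the vessel growth factor that RPE secretes, read 236, 289 and 278 CPM in WT and 195, 197 and 232 in GFP (log2 -0.36, SE 0.0859, adjusted p = 0.00468). For VEGFA WT replicate 1 was the lowest WT library, and without it the log2 fold change was -0.45. ANKRD37 fell from 17.8, 15.8 and 11.9 CPM to 10.0, 7.80 and 8.21 (log2 -0.80, adjusted p = 0.00219). ADM, the peptide adrenomedullin, fell from 25.3, 22.3 and 22.5 CPM to 13.9, 17.8 and 17.2 (log2 -0.51, adjusted p = 0.00259), a call that was lost without both WT replicate 1 and GFP replicate 1 (log2 -0.35, adjusted p = 0.0596).

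CA9, the carbonic anhydrase that is among the most HIF-dependent genes known, went the other way. It read 10.3, 11.7 and 12.6 CPM in WT and 35.2, 29.5 and 40.4 in GFP (log2 1.61, SE 0.141, adjusted p = 1.37e-07). The libraries did not overlap, the call held without GFP replicate 1 (adjusted p = 2.53e-06), and the log2 fold change was 1.53 without WT replicate 1. CA9 was the only list member that rose. The GSTA4 and OSK lines, against the same WT libraries, had medians of -0.29 and -0.10 over the 54 genes. Summed levels of the list were 9874 ± 157 CPM in GSTA4, 14391 ± 954 in OSK and 14006 ± 1360 in WT (SD, n = 3), so the OSK sum was not below WT.

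**Figure D3:**
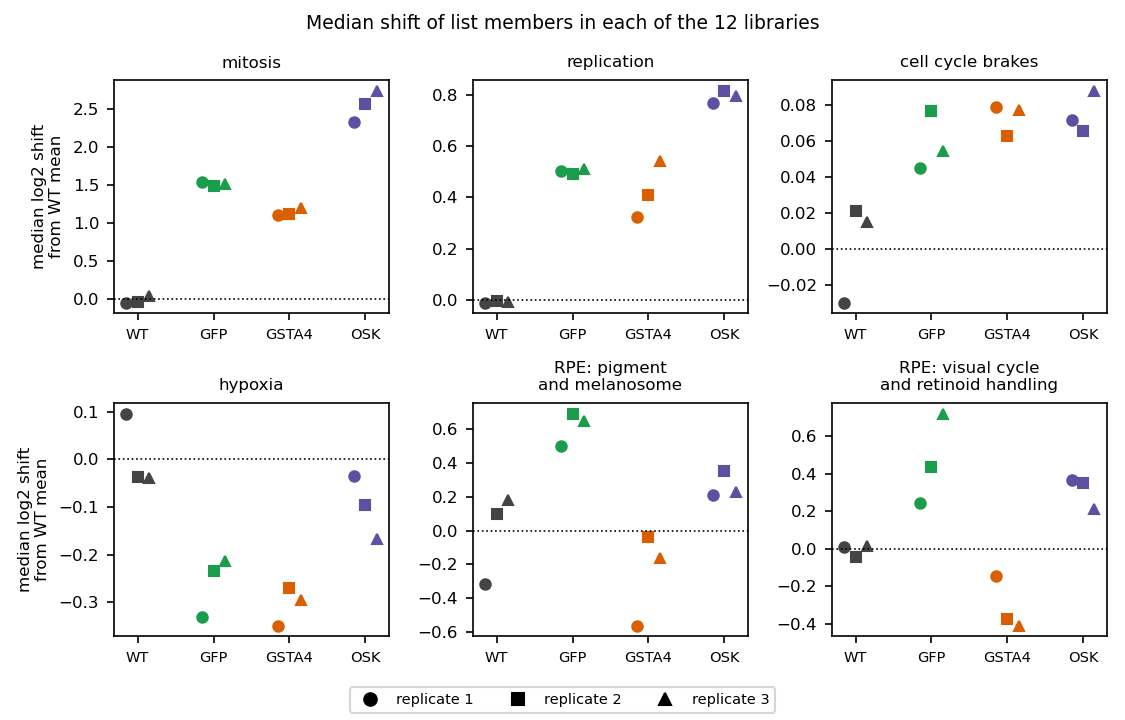
Median over a list's tested genes of the log2 shift from the WT mean (y axis, log2 of CPM plus 0.5) in each of the 12 libraries, with marker shape for the replicate number. GFP libraries lie at 1.49 to 1.54 for mitosis, where the WT libraries lie at -0.05 to 0.04, and below all WT libraries for hypoxia; the scale differs between panels.

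RPE genes moved in both directions, with pigment and retinoid genes higher and keratins lower. Of 47 tested members 20 rose (42.6%, against 11%) and 6 fell (12.8%, against 11.2%), with a median log2 fold change of 0.19. The summed level was 14095 ± 81.5 CPM in WT and 13575 ± 738 in GFP (SD, n = 3), so it did not rise with the count of genes. Without GFP replicate 1, 19 of the same genes rose and 5 fell, without WT replicate 1 the counts were 20 and 7, and without both 22 and 7. A further 15 of the 62 members had too few reads to be tested, among them RPE65, RGR, STRA6, KCNJ13 and DCT.

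In the visual cycle 4 of 7 tested genes rose. RLBP1 (CRALBP), which carries retinal in RPE cells, read 1.06, 1.83 and 1.47 CPM in WT and 4.63, 5.44 and 5.63 in GFP (log2 1.85, SE 0.341, adjusted p = 0.00064). LRAT, which esterifies retinol, read 1.06, 0.733 and 1.36 CPM in WT and 3.34, 3.15 and 5.16 in GFP (log2 1.86, SE 0.283, adjusted p = 9.18e-05). Both were low in CPM and had every GFP library above every WT library. RDH5 and RDH10, retinol dehydrogenases, rose by 0.72 and 0.51, and RDH5 shares at least 40% of its exon bases with another gene. The isomerase step was not measurable, since RPE65 was at or near the floor in both groups.

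Of 10 tested pigment and melanosome genes 7 rose and none fell, with a median of 0.62. TYR, the rate-limiting enzyme of melanin synthesis, read 10.1, 25.2 and 28.3 CPM in WT and 57.2, 71.3 and 69.1 in GFP (log2 1.64, SE 0.204, adjusted p = 1.11e-05). TYRP1, a later enzyme of the pathway, read 85.6, 133 and 136 CPM in WT and 172, 219 and 210 in GFP (log2 0.76, SE 0.139, adjusted p = 0.00055). PMEL, the fibril protein of melanosomes, read 175, 284 and 275 CPM in WT and 315, 390 and 365 in GFP (log2 0.54, SE 0.127, adjusted p = 0.00435). In all 3 genes replicate 1 was the lowest library of its group, and most so in WT. Without WT replicate 1 the log2 fold changes were 1.29 for TYR, 0.57 for TYRP1 and 0.35 for PMEL, all past the threshold. Without GFP replicate 1 they were 1.73, 0.86 and 0.62. TRPM1, a cation channel gene driven by MITF, read 2.73, 20.4 and 19.2 CPM in WT and 64.9, 90.1 and 85.2 in GFP (log2 2.52, SE 0.345, adjusted p = 3.27e-05). It was several times lower in WT replicate 1 than in the other WT libraries, and rose by 2.02 without that library. Markers of melanocytes, which use the same pigment genes, summed to 0.471 to 2.11 CPM in WT and 0.882 to 4.02 in GFP, overlapping ranges, and none of the 3 tested passed.

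The transcription factors of RPE moved little. MITF rose from 187, 216 and 218 CPM in WT to 243, 253 and 252 in GFP (log2 0.27, SE 0.0675, adjusted p = 0.00702), and by 0.20 without WT replicate 1. OTX2 read 180, 187 and 191 CPM in WT and 181, 200 and 195 in GFP, which overlap (log2 0.05, SE 0.058, adjusted p = 0.625). PAX6 read 176, 186 and 190 CPM in WT and 183, 182 and 192 in GFP (log2 0.01, SE 0.0534, adjusted p = 0.878), with exons that overlap another gene over at least 40% of their bases. SOX9, a partner of MITF and OTX2 at RPE genes, rose by 0.53, and LHX2, an eye-field factor, fell by 0.24 on the log2 scale.

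Genes for ion transport and epithelial structure split evenly, with 3 higher and 3 lower of 11. BEST1, the chloride channel bestrophin, read 2.67, 3.67 and 2.53 CPM in WT and 6.83, 9.45 and 9.64 in GFP (log2 1.56, SE 0.209, adjusted p = 2.56e-05). Of the exon bases of BEST1, 17.4% overlap FTH1, an abundant gene that also rose. CDH1, epithelial cadherin, read 1.99, 2.71 and 5.07 CPM in WT and 16.3, 11.5 and 20.2 in GFP (log2 2.28, SE 0.304, adjusted p = 2.4e-05). SLC16A8, a lactate carrier of the RPE, read 0.249, 0.880 and 0.825 CPM in WT and 2.35, 2.08 and 3.94 in GFP (log2 2.10, adjusted p = 0.00202). These 3 genes were low in WT and had no GFP library within the WT range. The simple epithelial keratins fell. KRT8 read 1469, 1165 and 1102 CPM in WT and 791, 822 and 911 in GFP (log2 -0.57, SE 0.0862, adjusted p = 9.72e-05). KRT18 read 498, 397 and 400 CPM in WT and 293, 321 and 326 in GFP (log2 -0.46, SE 0.0787, adjusted p = 0.000302), and -0.30 without both replicates 1. Both keratins have many processed pseudogenes, so their levels are uncertain. CDH2, neural cadherin, fell by 0.25.

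Among phagocytosis and secreted genes 4 of 13 rose and 2 fell. SERPINF1 (PEDF), an anti-angiogenic protein that RPE secretes, read 44.4, 64.8 and 61.5 CPM in WT and 117, 169 and 169 in GFP (log2 1.42, SE 0.139, adjusted p = 5.82e-07). Replicate 1 was the lowest library in each group, yet GFP replicate 1 was well above every WT library. TRPM3, a channel gene that RPE expresses, rose by 0.99 and PTGDS by 1.47, the latter with exons overlapping another gene. MERTK, the receptor for engulfing outer segments, read 4.22, 3.96 and 2.24 CPM in WT and 3.04, 2.36 and 2.24 in GFP and did not pass (log2 -0.44, SE 0.313, adjusted p = 0.338). MFGE8, a bridging ligand of the integrin that holds ITGB5, fell from 463, 573 and 560 CPM to 405, 436 and 454 (log2 -0.30, SE 0.0769, adjusted p = 0.00795). ITGB5 fell by 0.21, with overlapping libraries and a call that was lost without GFP replicate 1 (adjusted p = 0.146). TIMP3, a matrix inhibitor, read 2386, 1907 and 1877 CPM in WT and 1912, 2024 and 2023 in GFP, with a log2 difference of -0.05 (SE 0.0765, adjusted p = 0.689). Its sign turned without WT replicate 1 (0.07, adjusted p = 0.509). Over the 47 RPE genes the GSTA4 and OSK lines, against the same WT libraries, had medians of -0.19 and 0.13.

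**Figure D4:**
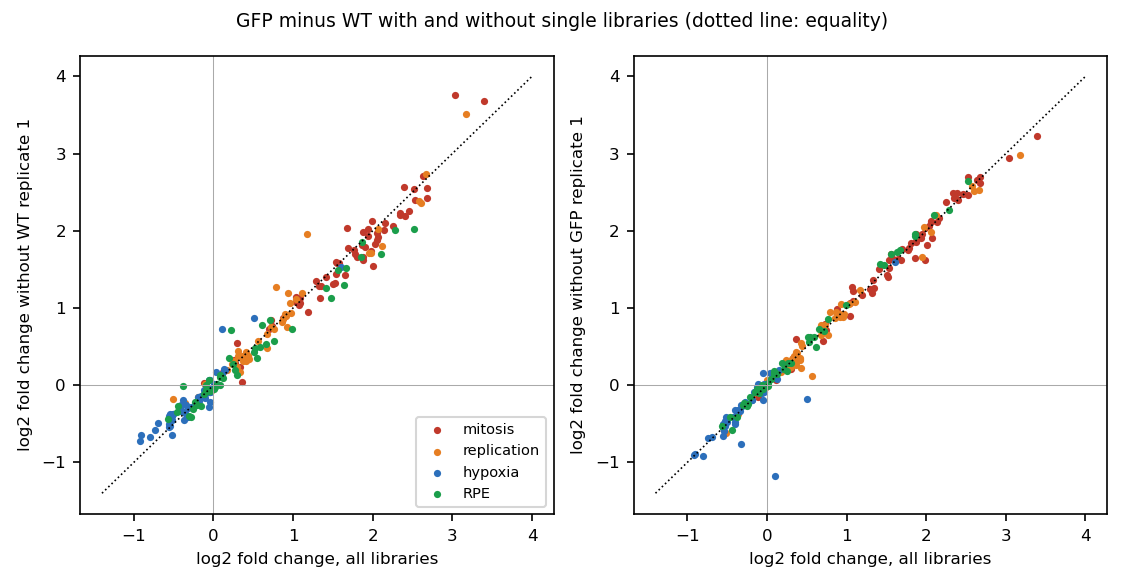
Log2 fold change of GFP over WT with all libraries (x axis) and without WT replicate 1 (left) or GFP replicate 1 (right, y axis) for members of 4 lists, with the dotted line at equality. Without WT replicate 1 many points lie closer to 0, such as TRPM1 (2.52 to 2.02) and LDHA (-0.91 to -0.65), whereas without GFP replicate 1 most lie along the line.

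Markers of other cell types in the 6 libraries were low or overlapped, with 2 exceptions. Leukocyte markers summed to 3.48 to 10.9 CPM in WT and 16.9 to 19.0 in GFP, mostly CSF1R, which read 2.86, 10.6 and 9.84 CPM in WT and 13.97, 18.2 and 18.8 in GFP (log2 1.14, adjusted p = 0.00503; 0.73 without WT replicate 1). The other 7 of the 8 leukocyte markers, PTPRC and CD14 among them, had too few reads to be tested. Photoreceptor markers summed to 13.05 to 18.99 CPM in WT and 24.4 to 24.7 in GFP, with PDE6B the one of 4 tested that rose (log2 0.57, adjusted p = 0.00694). Fibroblast markers summed to 634 to 703 CPM in WT and 632 to 700 in GFP, with LUM at 0. Of the 8 markers 6 had too few reads to be tested, and the sum was mostly PDGFRB. FAP, 1 of 2 tested, fell from a mean of 10.2 to 6.28 CPM (log2 -0.70, adjusted p = 0.0244). Endothelial markers summed to 71.1 to 94.4 CPM in WT and 58.8 to 76.2 in GFP, mostly KDR, with means of 79.1 and 61.9 CPM. KDR was lower (log2 -0.35, adjusted p = 0.00966, and 0.06 without WT replicate 1). VWF was higher (log2 2.27, adjusted p = 0.0156, and 0.199 without GFP replicate 1). Markers of retinal neurons and glia summed to 170 to 214 CPM in WT and 189 to 196 in GFP. The part of these markers in the RPE results was not tested.

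The largest changes over all genes were taken from those with a mean of at least 5 CPM in either group, no overlap between libraries, and the same call without GFP replicate 1 and without WT replicate 1, which left 1851 of the genes past the threshold. Of the 8 largest rises, HJURP (2.68), NDC80 (2.68) and BUB1 (2.53) are members of the mitosis list and RRM2 (2.58) of the replication list. IQGAP3 (2.82) and GTSE1 (2.65) are in none of the lists. The other two were CASC19 (2.92), a long noncoding RNA that was at 10.3 and 10.1 CPM in GFP replicates 1 and 2 but at 1.83 in replicate 3, and TMEFF2. TMEFF2, a membrane protein with follistatin-like domains, had the largest rise and read 6.77, 5.06 and 5.66 CPM in WT and 40.6, 53.1 and 50.3 in GFP (log2 3.03, SE 0.117, adjusted p = 9.81e-13). It rose by 3.15 without WT replicate 1.

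In each of the 8 largest falls WT replicate 1 was the highest of the 6 libraries. AOX1, aldehyde oxidase, read 21.8, 9.09 and 9.49 CPM in WT and 1.90, 2.22 and 2.17 in GFP (log2 -2.68, SE 0.326, adjusted p = 8.37e-06). H2AC6, a histone H2A gene, read 102, 49.1 and 43.7 CPM in WT and 17.6, 14.5 and 12.3 in GFP (log2 -2.14, adjusted p = 1.1e-05). CCL2, a chemokine, read 45.3, 17.8 and 11.4 CPM in WT and 8.96, 3.15 and 5.36 in GFP (log2 -2.10, adjusted p = 0.000453). AGFG2 fell from 296, 70.2 and 62.6 CPM to 24.8, 22.8 and 20.3 (log2 -2.66, adjusted p = 8.16e-05). FRMD3 fell by 1.98 (adjusted p = 0.00355). Without WT replicate 1 the log2 fold changes were -2.15 for AOX1, -1.65 for H2AC6, -1.33 for CCL2, -1.56 for AGFG2 and -1.28 for FRMD3. All of these kept their direction and passed, and those of CCL2, AGFG2 and FRMD3 shrank by over 1.5 times. IGFBP5, NYAP1 and H2BC5, the rest of the 8, moved from -3.50, -2.82 and -2.80 to -2.45, -2.18 and -2.29.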

How the data were processed

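The authors deposited raw read counts per gene for 12 poly(A) RNA libraries. Per the labels' protocols, RNA was extracted with TRIzol and libraries were made with the NEBNext Ultra II kit. The submitters' processing notes name STAR 2.7.1a, featureCounts 1.6.2 and the builds GRCh38/hg38 and GRCm38/mm10. The annotation release and the strand setting are not given in the sources used here, so reads of overlapping genes cannot be told apart. Exon overlap was read from GENCODE annotation of GRCh38, which may differ from the one used for counting. Of 60605 lines, 20014 had no gene name and held 0.485% to 0.822% of a library's reads. They were left out, and 40591 named lines were used as deposited.

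Genes were kept by filterByExpr with the groups, and all 12 libraries were fitted together with edgeR 4.0.16 (limma 3.58.1, R 4.3.3) after TMM scaling, with 1 coefficient for each group and no covariate. The contrast was GFP minus WT, two-sided, with Benjamini-Hochberg adjustment over 15179 genes. SE is the log2 fold change divided by the square root of F. CPM was computed from the counts after TMM scaling. Alternatives were RLE scaling, library size alone, 2 filters, DESeq2 1.42.0, a replicate block, the 6 libraries alone, a minimum log2 fold change of 1 and each library left out. The fit was first tested on simulated counts with known changes.

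The 18 gene lists were compiled by hand from textbook knowledge, and the comparison, members and lists were chosen with earlier results of these data known. Of 527 entries 526 matched a symbol. Named genes are fixed well-known members of each list, the 3 largest rises and falls of each list with a mean of at least 1 CPM, and the 8 largest rises and falls over all genes. Other members are named to account for a list and were chosen after their values were seen. No list was tested as a set. Some members that the rule names are left out of the text.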

Additional observations from a re-analysis of the deposited data

How the results depend on the processing

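The counts of genes higher and lower were 1666 and 1703 with all libraries, 387 and 115 with a minimum log2 fold change of 1, and 1186 and 1218 with only the 6 libraries in the fit. With that minimum, 52 mitosis genes, 11 replication genes and 10 RPE genes were higher and 0 hypoxia genes lower, against 58, 25, 20 and 26 without it. Leaving out 1 library at a time gave 1128 to 1598 genes higher and 1139 to 1624 lower, 56 to 59 mitosis, 22 to 25 replication and 19 to 21 RPE genes higher, and 24 to 26 hypoxia genes lower. DESeq2 called 3375 genes, 3252 of them among the 3369 of edgeR. The labels' replicate numbers were not shown to pair the libraries: deviations from the group means correlated at 0.181, 0.0405 and 0.0619 for equal numbers. GFP replicates 2 and 3 correlated best with another number. The replicate block gave 1906 genes higher and 1873 lower, with 58, 25, 20 and 26 list genes.

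This tally left out the named genes of the cell type marker, ribosomal protein and mitochondrially encoded lists. Of the other 95 named genes 81 passed, and 75 of these passed in every alternative other than the minimum fold. The sign turned only for genes that did not pass. With 1 library left out in turn, CCND2 ran from 0.08 to 0.58, CDKN1A from -0.13 to 0.0265, EGLN3 from -0.18 to 0.98, PAX6 from -0.0197 to 0.0365 and TIMP3 from -0.11 to 0.07. CCND2 was at -0.10 and TIMP3 at 0.10 without both replicates 1, and PAX6 at -0.00295 with no filter. The cause was not tested. Depth limits genes near the floor, such as RPE65, EGLN3 and SPC25 in WT.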

Other observations

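Among lists outside the cell cycle, hypoxia and the RPE, TGF-beta targets were mostly lower in the GFP line. Of 20 tested TGF-beta targets 15 fell and 1 rose, against 11.2% and 11% of all genes, with a median log2 fold change of -0.34. LOXL2, a collagen cross-linking enzyme, read 264, 129 and 114 CPM in WT and 62.7, 57.4 and 60.0 in GFP (log2 -1.496, SE 0.218, adjusted p = 6.19e-05), and fell by 1.02 without WT replicate 1. TGFB1 fell by 0.71 (adjusted p = 7.65e-05). ACTA2, smooth muscle actin, rose from 5.78, 10.5 and 9.78 CPM to 15.0, 18.9 and 19.3 (log2 1.04, SE 0.173, adjusted p = 0.000246). The count that fell was 12 without GFP replicate 1 and 17 without WT replicate 1.

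Of 23 tested sterol synthesis genes 11 rose (47.8%, against 11% of all genes) and none fell, with a median of 0.21. The count that rose was 12 without GFP replicate 1 and 10 without WT replicate 1. HMGCS1, an early enzyme of the pathway, read 71.1, 68.8 and 65.3 CPM in WT and 116, 119 and 125 in GFP (log2 0.81, SE 0.0693, adjusted p = 9.65e-08). INSIG1, a target of SREBP2, rose by 0.72 (adjusted p = 1.42e-06). Among 25 tested interferon-response genes 8 rose (32%, against 11% of all genes) and none fell, led by MX1 (1.62) and OAS3 (1.45), both low. MX1 read 0.746, 0.513 and 0.589 CPM in WT and 2.81, 1.72 and 1.29 in GFP. Without GFP replicate 1 the count that rose was 9 and without WT replicate 1 it was 7. ISG15 and IFIT1 were at -0.66 and -0.44 without passing.

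Of 24 NRF2 targets 6 fell (25%, against 11.2% of all genes), AKR1C3 (-0.76) and GCLC (-0.50) among them. FTH1 alone rose (0.36), a share of 4.17%, against 11% of all genes. The count that fell was 6 without GFP replicate 1 and 6 without WT replicate 1. Of the exon bases of FTH1, 56.6% overlap BEST1. AKR1C3 did not pass without both replicates 1 (adjusted p = 0.0861). FTH1 did not pass without WT replicate 1 (adjusted p = 0.0538), without GFP replicate 2 (0.0606) or 3 (0.0686), or by DESeq2 (0.0529). Of 20 ATF4-response genes 2 fell, ATF4 (-0.46) and CEBPB (-0.37), a share near that of all genes (10%, against 11.2%). Without GFP replicate 1 there were 3 that fell, and without WT replicate 1 there were 4. Of 75 ribosomal protein genes 27 rose (36%, against 11% of all genes) and none fell, with a median of 0.17. This count moved from 54 without GFP replicate 1 to 16 without WT replicate 1. Of 13 mitochondrially encoded genes 2 rose (15.4%, against 11% of all genes) and 1 fell (7.69%, against 11.2%), shares near those of all genes. Both counts were the same without GFP replicate 1 and without WT replicate 1.

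Histone genes, grouped after H2BC5 and H2AC6 had been seen among the largest falls, were lower while the replication genes were higher. Of 13 tested, 8 fell and none rose, against 11.2% and 11% of all genes, with a median log2 fold change of -1.22. WT replicate 1 was the highest WT library in 7 of the 8. Without that library 5 fell, and without GFP replicate 1 there were 8. H2BC12 read 10.4, 12.03 and 8.84 CPM in WT and 6.91, 5.73 and 7.33 in GFP (log2 -0.64, SE 0.17, adjusted p = 0.0108). Most histone messages that follow DNA replication lack a poly(A) tail, and these libraries were made from poly(A) RNA, so these values may describe a minor fraction of histone transcripts. Any part of that selection in the difference was not tested.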
